A study of Homo sapiens with 2 samples.

Results

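Wnt pathway feedback genes were followed in Hep3B, a cell line established from a human liver cancer, as 10 genes chosen by symbol: AXIN1, AXIN2, RNF43, ZNRF3, LGR5, NKD1, TCF7, NOTUM, LEF1 and DKK1. These genes, and the lists used further on, were chosen with earlier results of these data known. All 10 were found among the 43424 gene symbols of the count tables. The series held 1 library of cells that received only the solvent dimethyl sulfoxide (DMSO), called the control here, and 1 library of cells that received GLE, an extract of the plant Glehnia littoralis. Both came from Hep3B cells labelled as wild type, and both labels carry the same general entry of a cancer treatment. How much extract the sequenced cells received, and for how long, is not given in the sources used here. Each library started from 500 ng of total RNA and was made with the QuantSeq kit of Lexogen. Its reads come from the 3′ ends of messages with a poly(A) tail, so a count stands for an end and not for a length of transcript. The question posed by the series was whether the extract acts on these cells.

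In the Wnt pathway, a scaffold of axin and APC brings kinases to β-catenin and marks it for destruction. A Wnt ligand bound to Frizzled and LRP receptors stops this, and β-catenin then enters the nucleus, where it works with the DNA-binding TCF and LEF factors. Several of the genes so switched on act back on the pathway, which is why they serve as its readouts. In the liver the pathway is best known for setting the gene programme of hepatocytes around the central vein, and its scaffold and β-catenin genes are often mutated in liver cancer.

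The members act at several levels of the pathway. LGR5 is a receptor for R-spondins, and RNF43 and ZNRF3 are membrane ubiquitin ligases that remove Frizzled from the cell surface and are held back by R-spondins. DKK1 is a secreted protein that blocks LRP receptors, and NOTUM is a secreted enzyme that strips the lipid from Wnt ligands. AXIN1 and AXIN2 are scaffolds of the destruction complex, the latter a common target of the pathway, and NKD1 binds Dishevelled and dampens the signal. TCF7 and LEF1 are DNA-binding partners of β-catenin.

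Promoter sequence from RefSeq (GRCh38.p14, 250 bases before to 50 bases after a start site) matched 5 of the 10 genes in 7 windows, for AXIN1, DKK1, LEF1, RNF43 and TCF7. AXIN2, ZNRF3, LGR5, NKD1 and NOTUM were not matched. Windows are shown for 3 of the 4 genes that were lower with GLE by 2-fold or more, since TCF and LEF factors are the pathway's route to DNA. Capitals mark the letters CTTTG, the core of the TCF/LEF motif, or its reverse complement CAAAG, and the longer core CTTTGAA where it was found. They are written 5′ to 3′ along the gene's strand, at chr10:52314031-52314330 (plus) for DKK1, chr17:58417485-58417784 (minus) for the outermost RNF43 start and chr4:108166252-108166551 (minus) for LEF1. The LEF1 window is that of a start inside the gene. The outermost LEF1 start lies at 108168932, and no window there was matched.
DKK1: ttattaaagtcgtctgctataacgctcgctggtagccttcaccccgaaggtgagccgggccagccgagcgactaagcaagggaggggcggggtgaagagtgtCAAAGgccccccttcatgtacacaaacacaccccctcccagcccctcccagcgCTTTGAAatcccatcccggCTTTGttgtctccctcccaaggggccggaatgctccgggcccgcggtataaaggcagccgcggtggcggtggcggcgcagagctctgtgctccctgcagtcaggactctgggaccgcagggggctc
RNF43: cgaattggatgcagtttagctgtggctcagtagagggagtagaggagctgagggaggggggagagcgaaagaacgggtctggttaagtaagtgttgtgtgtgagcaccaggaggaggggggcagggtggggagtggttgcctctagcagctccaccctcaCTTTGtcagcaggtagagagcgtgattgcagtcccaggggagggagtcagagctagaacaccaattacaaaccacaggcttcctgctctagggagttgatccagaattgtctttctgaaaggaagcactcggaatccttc
LEF1: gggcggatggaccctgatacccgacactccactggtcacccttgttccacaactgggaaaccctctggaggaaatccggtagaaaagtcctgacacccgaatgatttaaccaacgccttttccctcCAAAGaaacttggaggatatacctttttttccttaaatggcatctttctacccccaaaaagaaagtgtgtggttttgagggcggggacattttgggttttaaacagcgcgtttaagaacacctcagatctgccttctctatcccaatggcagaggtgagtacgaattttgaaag

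The longer core, CTTTGAT or CTTTGAA on either strand, was found in 1 of the 7 windows, that of DKK1, where CTTTGAA began 95 bases before the start site. It was present in 6.86% of all 35116 RefSeq windows of 300 bases. The short core CTTTG, which the longer one contains, was found in 5 of the 7 windows and in 47.5% of all windows. DKK1 held 3 short cores, the outer RNF43 window 1 and the LEF1 window 1. AXIN1 and 1 of the 2 TCF7 windows held none. Both TCF7 windows also lie inside their gene, whose outermost start is at 134108218. The windows ranged from 43.7% G and C in the inner RNF43 window to 78.0% in AXIN1, against a median of 58.7% over all windows.

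Sequencing depth was 5618328 counts for the control and 3636351 for GLE. Levels are given as CPM, a gene's counts per 1000000 counts of library size, with that size adjusted by the TMM factors of edgeR (trimmed mean of M-values), 1.03 and 0.972. A gene was taken as measured when its counts in the 2 libraries summed to 30 or more, which held for 11068 genes and for all 10 members. Intervals are exact 95% intervals of counting error only, and they treat each read as its own molecule although the labels name no molecular identifiers. With 1 library per condition there is no replicate check and no test, so every difference below compares these libraries and not the conditions. All 12 hepatocyte markers were counted, from 529 to 41784 in the control and from 145 to 25268 in the GLE library. The 7 fibroblast markers summed to 6.92 and 20.4 CPM, with DCN at 0 in the control and PDGFRA at 0 in the GLE library. COL1A1, the only one of them measured, had 4 and 29 counts, a ratio of 11.8 (4.16 to 46.4). Of the 7 endothelial markers, PECAM1 had 36 and 1 counts and the other 6 were at 0 in both libraries. The 7 immune markers summed to 496 and 466 CPM, nearly all from LYZ, with 1 and 3 counts of PTPRC and 0 of CD3E and MS4A1. The part of these markers in the results below was not tested.

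The feedback genes did not lie on one side. RNF43, DKK1, LGR5 and LEF1 were lower with GLE by 2-fold or more, and NOTUM was higher by more than that. That is 4 of 10 lower, where 10.5% of all measured genes were lower by that much, and 1 of 10 higher, where the share of all measured genes was 9.54%. The counting interval lay wholly below 1 for 5 members (30.1% of all measured genes) and wholly above 1 for 2 (27.7%), and it held 1 for AXIN1, AXIN2 and NKD1. The members' log2 ratios of GLE over control ran from -1.64 to 2.19 with a median of -0.41, beside a median of -0.04 over all measured genes. Cell types or states present in fewer cells cannot be told apart from less RNA per cell in such bulk libraries.

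**Figure D1:**
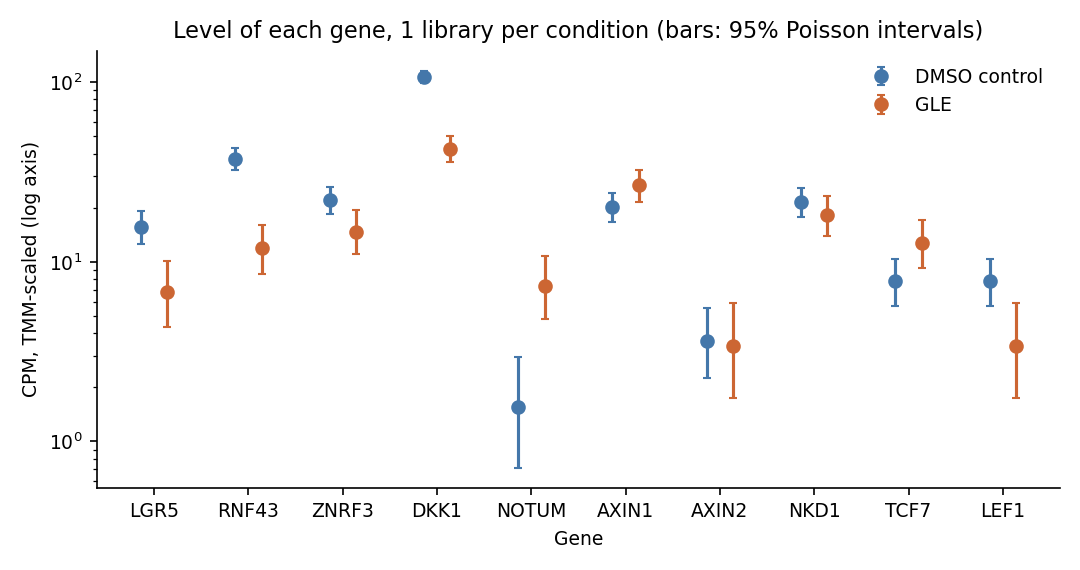
TMM-scaled CPM (log axis) of the 10 genes in the DMSO control and GLE libraries, 1 library each, with exact 95% Poisson intervals. The intervals of LGR5, RNF43, DKK1 and NOTUM do not overlap between the libraries, while those of AXIN2 and NKD1 overlap over most of their range. The share of all measured genes without such overlap is not given here, so this is description only.

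At the receptor, RNF43 (chromosome 17, 58352500 to 58417534, GRCh38) had 216 control and 42 GLE counts, or 37.4 CPM (32.6 to 42.7) and 11.9 CPM (8.56 to 16.1). Those intervals are well apart, and the GLE library was 3.15-fold lower (2.25 to 4.49). Only 3.22% of measured genes had a lower ratio. RNF43 shares 143 exonic bases with SUPT4H1 on the same strand, whose 852 and 841 counts gave a ratio of 1.61 (1.46 to 1.78), on the other side of 1. A further protein-coding entry of GENCODE release 29 shares 4326 exonic bases with RNF43, and another shares 1316 with AXIN2, and their counts were not analysed here.

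ZNRF3, the paralogous ligase (chromosome 22, 28883572 to 29057488), had 127 and 52 counts, or 22.0 CPM (18.3 to 26.2) and 14.7 CPM (11.0 to 19.3). Its levels overlapped slightly in their own intervals, and the ratio was 0.669 (0.475 to 0.931), below 1 but short of 2-fold. LGR5 (chromosome 12, 71439129 to 71586310) had 90 and 24 counts, or 15.6 CPM (12.5 to 19.1) and 6.79 CPM (4.35 to 10.1). It was 2.29-fold lower (1.45 to 3.77) in the GLE library, so that the R-spondin receptor and both ligases lay below 1 together. LGR4, the related R-spondin receptor, had 210 and 109 counts and a ratio of 0.848 (0.667 to 1.07), with no difference detectable at this depth.

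The secreted inhibitors lay in opposite directions. DKK1 (chromosome 10, 52314281 to 52317657) had 618 and 150 counts, or 107 CPM (98.7 to 116) and 42.4 CPM (35.9 to 49.8), and was 2.52-fold lower (2.11 to 3.03). It was the best-counted of the 10 genes, and its whole interval lay beyond 2-fold, as that of RNF43 did. How many of all measured genes had a whole interval beyond 2-fold is not given here. NOTUM (chromosome 17, 81952507 to 81961187) had 9 and 26 counts, or 1.56 CPM (0.712 to 2.96) and 7.35 CPM (4.80 to 10.8). Its ratio of 4.72 (2.14 to 11.4) was higher than that of 98.5% of measured genes, yet it rests on the fewest control counts of the members. With the control thinned to the depth of the GLE library in a single draw, the ratio was 3.99 (1.69 to 10.9), and the interval no longer lay wholly above 2. Both NOTUM levels stood above the floor of 3 counts, which was 0.519 CPM for the control and 0.848 CPM for GLE.

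**Figure D2:**
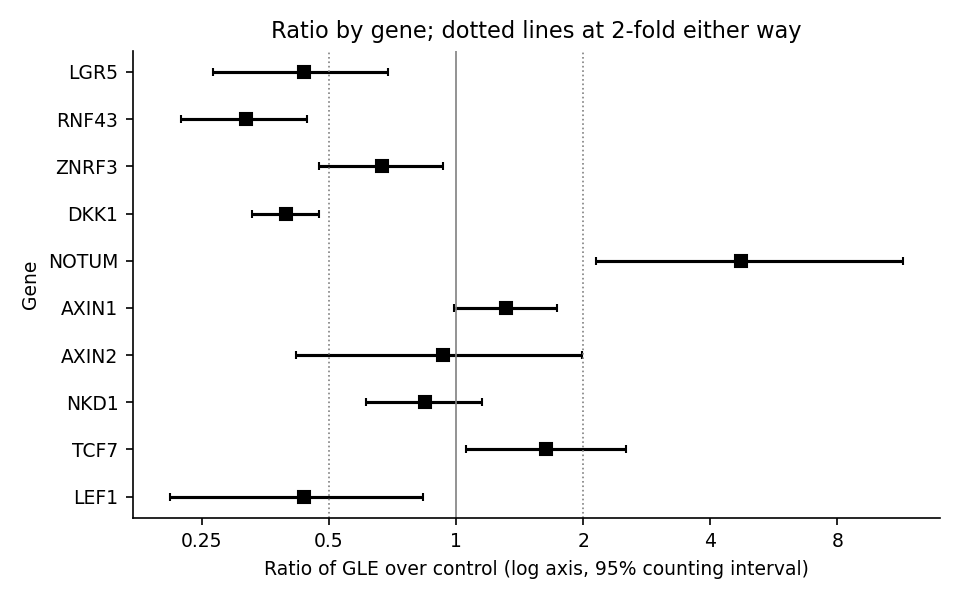
Ratio of GLE over control for each gene on a log axis, with exact 95% counting intervals and dotted lines at 2-fold either way. RNF43 at 0.318 and DKK1 at 0.397 have their whole intervals below 0.5, NOTUM at 4.72 has its whole interval above 2, and the other 7 intervals reach inside the dotted lines. The share of all measured genes with a whole interval beyond 2-fold is not given here.

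Neither scaffold showed a difference clear of counting error under TMM. AXIN1 (chromosome 16, 287440 to 352723) had 117 and 94 counts, or 20.2 CPM (16.7 to 24.3) and 26.6 CPM (21.5 to 32.5), a ratio of 1.31 (0.990 to 1.74). The lower end was 1.01 when the libraries were centred on the median of well-counted genes, so whether the interval held 1 turned on the scaling, while the ratio itself stayed above 1. AXIN2 (chromosome 17, 65528563 to 65561648), often used as a general readout of β-catenin activity, had 21 and 12 counts, or 3.63 CPM (2.25 to 5.56) and 3.39 CPM (1.75 to 5.93). The AXIN2 ratio of 0.934 had an interval from 0.419 to 1.99, which at this depth takes in a 2-fold fall and nearly a 2-fold rise. NKD1 (chromosome 16, 50548396 to 50649249) had 124 and 64 counts, or 21.5 CPM (17.9 to 25.6) and 18.1 CPM (13.9 to 23.1), a ratio of 0.843 (0.614 to 1.15). The better-counted NKD1 thus bounds any difference more tightly than AXIN2, and its interval leaves out a 2-fold difference either way.

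The DNA-binding partners differed from each other. TCF7 (chromosome 5, 134108218 to 134148210) had 45 counts in each library, or 7.79 CPM (5.68 to 10.4) and 12.7 CPM (9.28 to 17.0). At the lower depth of the GLE library this was a ratio of 1.63 (1.06 to 2.53), and the interval reached 0.999 when the libraries were scaled by total counts. LEF1 (chromosome 4, 108047548 to 108168932) also had 45 control counts but 12 in the GLE library, or 3.39 CPM (1.75 to 5.93), and was 2.29-fold lower (1.19 to 4.77). In GENCODE release 29, TCF7 shares 210 exonic bases with SKP1 on the opposite strand, which had 834 and 447 counts and a ratio of 0.876 (0.779 to 0.984). The strand setting of the counting is not given in the sources used here, so reads in the shared bases cannot be assigned. The opposite-strand genes LEF1-AS1 and PRKG1-AS1, which share exonic bases with LEF1 and DKK1, had 0 counts in both libraries.

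**Figure D3:**
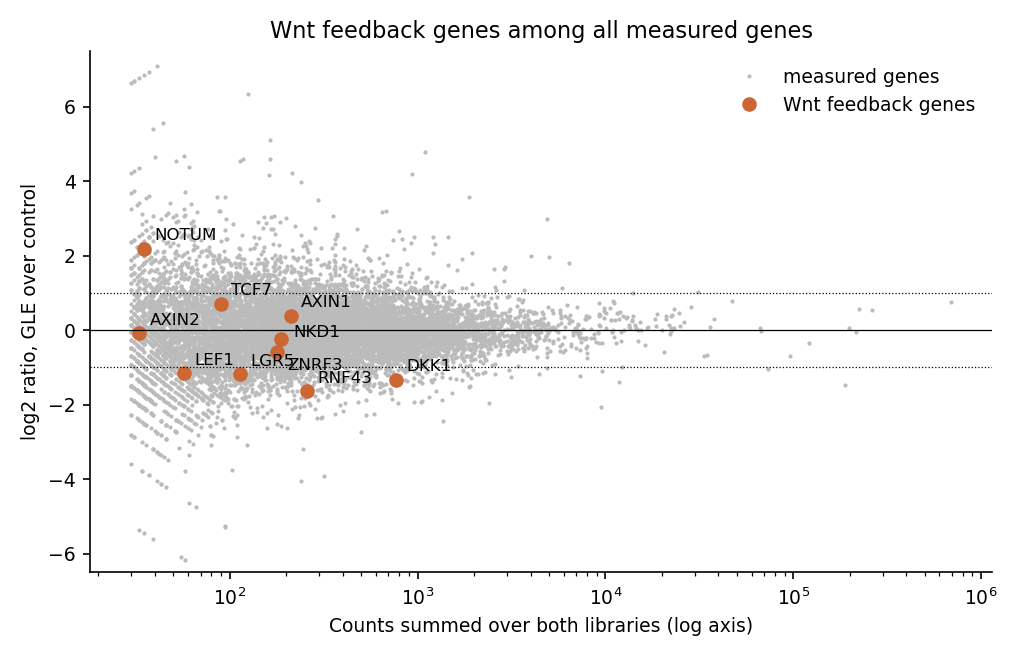
Log2 ratio of GLE over control against the counts summed over both libraries (log axis) for all 11068 measured genes in grey and the 10 feedback genes in orange, with dotted lines at 2-fold. DKK1, RNF43 and LGR5 lie below the lower line among better-counted genes, while NOTUM and LEF1 lie where the grey points spread most widely.

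The share of genes with a 2-fold difference depended on the counts behind it. Among the 8384 genes with 100 or more summed counts, 6.91% were lower by 2-fold or more and 7.31% higher, and among the 2684 genes with 30 to 99 counts the shares were 21.8% and 16.5%. RNF43, DKK1 and LGR5 were in the better-counted class, together with AXIN1, ZNRF3 and NKD1, which lay within 2-fold. With 114 summed counts, LGR5 stood close to the lower limit of that class, so the class share is a loose comparison for it. LEF1 and NOTUM were in the class of 30 to 99 counts, with TCF7 and AXIN2. Summed over the 10 genes, the level was 244 CPM without and 147 CPM with GLE, a ratio of 0.603 (0.544 to 0.667). DKK1 made up 43.8% of those counts in the control (exact binomial 41.2 to 46.4) and 28.8% in the GLE library (24.9 to 32.9). Without DKK1 the ratio was 0.764 (0.673 to 0.865). That sum still held RNF43, with 216 of its 794 control counts but 42 of its 371 GLE counts. A sum without both DKK1 and RNF43 was not computed, so whether the remaining members were lower together was not tested. Sums over other sets of genes were not computed either, so these pooled ratios are description only.

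Pairs of members with like roles were also compared within each library, since the ratio of one gene's counts to another's does not depend on how the libraries are scaled. For ZNRF3 and RNF43, ZNRF3 held 37.0% of the pair's 343 control counts (exact binomial 31.9 to 42.4) and 55.3% of its 94 GLE counts (44.7 to 65.6). The ratio of ZNRF3 to RNF43 was thus 2.10 times as high in the GLE library (conditional odds ratio, exact 95% interval 1.29 to 3.44), so these ligases differed in their ratios by more than counting error. TCF7 held 50.0% of the counts of TCF7 and LEF1 in the control (39.3 to 60.7) and 78.9% in the GLE library (66.1 to 88.6), an odds ratio of 3.72 (1.67 to 8.78). NOTUM held 1.44% of the counts of NOTUM and DKK1 in the control (0.658 to 2.71) and 14.8% in the GLE library (9.88 to 20.9), an odds ratio of 11.9 (5.25 to 29.4). For AXIN1 and AXIN2 the odds ratio was 1.40 with an interval of 0.622 to 3.30, and no difference between the scaffolds was detectable. In 3 of the 4 pairs the odds interval therefore left out 1, and these intervals cover counting error only. No share over pairs of other genes was computed, so this count is not particular to these pairs. Intervals of single genes lay wholly below 1 for 30.1% and wholly above 1 for 27.7% of all measured genes.

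**Figure D4:**
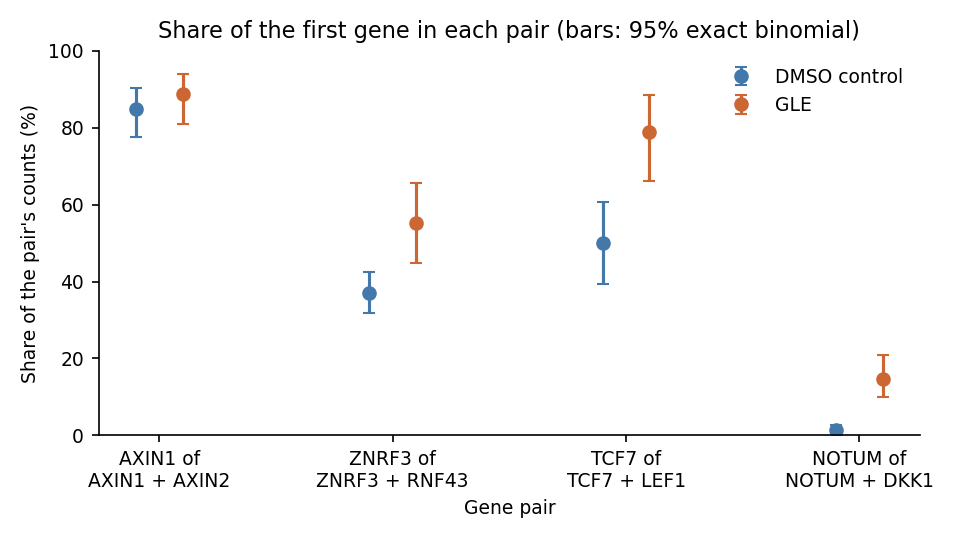
Share of a pair's counts held by its first gene, in percent, in the DMSO control and GLE libraries, with exact 95% binomial intervals. The share of TCF7 stands at 50.0% and 78.9% and that of NOTUM at 1.44% and 14.8%, with no overlap of intervals, while the shares of AXIN1 overlap.

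The rest of the pathway was described from 8 lists with 176 entries, whose counts are to be read beside the shares of all measured genes given above (10.5% lower and 9.54% higher by 2-fold, 30.1% and 27.7% with intervals below and above 1). Ligands were scarcely counted. Of 25 genes for Wnt ligands, R-spondins and ligand secretion, 17 had 0 counts in both libraries, among them all 4 R-spondins, and the ligand with most counts was WNT3 with 16 and 3. WLS, which carries Wnt ligands to the cell surface, was the sole measured member, with 29 and 6 counts, 2.96-fold lower (1.21 to 8.71). Among 8 measured receptors of 20, 0 lay beyond 2-fold, with 2 intervals below 1 and 2 above. The co-receptor LRP5 was 1.56-fold lower (1.23 to 1.99) and PTK7, a co-receptor of the planar branch, 1.77-fold lower (1.32 to 2.40), while the ratios of FZD5 and RYK were 1.30 (1.04 to 1.62) and 1.42 (1.08 to 1.87).

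The cytoplasmic core had 3 of 21 measured genes lower by 2-fold or more and 1 higher, and its median log2 ratio was -0.04. Intervals lay below 1 for 7 core genes, above 1 for 7 and held 1 for 7. CTNNB1, which encodes β-catenin, had 1048 and 771 counts and a ratio of 1.20 (1.09 to 1.32). APC had a ratio of 0.800 (0.617 to 1.03), an interval that holds 1. FRAT1 and FRAT2, related proteins that bind GSK3, were both lower, with 74 and 6 counts (7.55-fold, 3.31 to 21.2) and 216 and 45 counts (2.94-fold, 2.12 to 4.15). AMER1, which brings the destruction complex to the membrane, was 2.64-fold lower (1.42 to 5.25), and TNKS2, a tankyrase that marks axins for degradation, was 2.17-fold higher (1.55 to 3.05).

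Nuclear factors had 2 of 22 measured genes lower by 2-fold or more, 0 higher, a median of -0.21, and intervals below 1 for 10 and above 1 for 3. The lower calls lay near the share of all measured genes, 10.5%, and the interval shares of all measured genes were 30.1% and 27.7%. CTBP2, a co-repressor, was 3.08-fold lower (2.03 to 4.85) and CBY1, a β-catenin antagonist, 2.31-fold lower (1.76 to 3.05). CTNNBIP1, which keeps β-catenin from TCF factors, was 1.84-fold lower (1.42 to 2.41). Of the TCF factors outside the 10 members, TCF7L1 was 1.90-fold lower (1.40 to 2.62), and TCF7L2 had a ratio of 0.904 (0.783 to 1.04). The TCF and LEF genes therefore spread from 0.436 for LEF1 to 1.63 for TCF7.

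Most other antagonists of the pathway fell short of the minimum, with 10 of 21 at 0 in both libraries and 4 measured. BAMBI, better known as a decoy receptor of the TGF-beta family, and TMEM131L had ratios of 0.443 (0.275 to 0.689) and 0.447 (0.292 to 0.666). The intervals of the other 2 measured antagonists held 1. None of the 4 was 2-fold higher, unlike NOTUM among the members.

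Targets of β-catenin were described in 2 lists that hold none of the 10 members. Because the lists were chosen with earlier results of these data known, shares above those of all genes are description only. Of 20 measured targets known mainly from tissues other than liver, 6 were lower by 2-fold or more, beside 10.5% of all measured genes, and 2 were higher, near the 9.54% of all measured genes. Their median log2 ratio was -0.64, and 12 had intervals below 1, beside 30.1% of all measured genes. SOX4, a transcription factor, had 8223 and 1214 counts and was 4.15-fold lower (3.90 to 4.41), ETS2 was 2.55-fold lower (2.15 to 3.04) and SOX9 2.30-fold lower (1.89 to 2.82). The 2 higher were TNFRSF19 and SP5. TNFRSF19 had 9 and 24 counts, a ratio of 4.36 (1.96 to 10.7). SP5 had 31 and 43 counts, a ratio of 2.27 (1.40 to 3.72). Of 10 measured pericentral liver targets, 2 were lower by 2-fold or more, 0 were higher, and the median was -0.54. Their intervals lay below 1 for 5 (30.1% of all measured genes), above 1 for 1 (27.7%) and held 1 for 4. GLUL, the glutamine synthetase that marks hepatocytes at the central vein, had 869 and 245 counts and was 2.17-fold lower (1.88 to 2.51). RGN was 3.67-fold lower (1.53 to 10.7), CYP27A1 1.75-fold lower (1.47 to 2.09) and GSTM3 1.54-fold lower (1.28 to 1.87). The interval above 1 was that of OAT, with a ratio of 1.53 (1.09 to 2.14).

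Of 16 genes of the opposite, periportal zone, 5 were measured and 0 of these were higher. All 5 had intervals below 1, 2 of them at least 2-fold lower, with a median of -0.95. The urea cycle enzymes CPS1, ASL and ASS1 had ratios of 0.409 (0.173 to 0.864), 0.517 (0.406 to 0.654) and 0.565 (0.409 to 0.770). The adhesion gene CDH1 had a ratio of 0.698 (0.571 to 0.849). Of the 12 hepatocyte markers, 3 were lower by 2-fold or more (10.5% of all measured genes) and 0 higher (9.54%). Their intervals lay below 1 for 8 (30.1% of all measured genes), above 1 for 2 (27.7%) and held 1 for 2. Their median was -0.39. HNF4A, the hepatocyte transcription factor, had the lowest ratio of the markers, 0.372 (0.317 to 0.434). The ratios of SERPINA1 and KRT18 lay above 1, at 1.45 (1.31 to 1.62) and 1.08 (1.01 to 1.16). Whether the levels of liver genes at large had a part in the pericentral values was not tested.

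**Figure D5:**
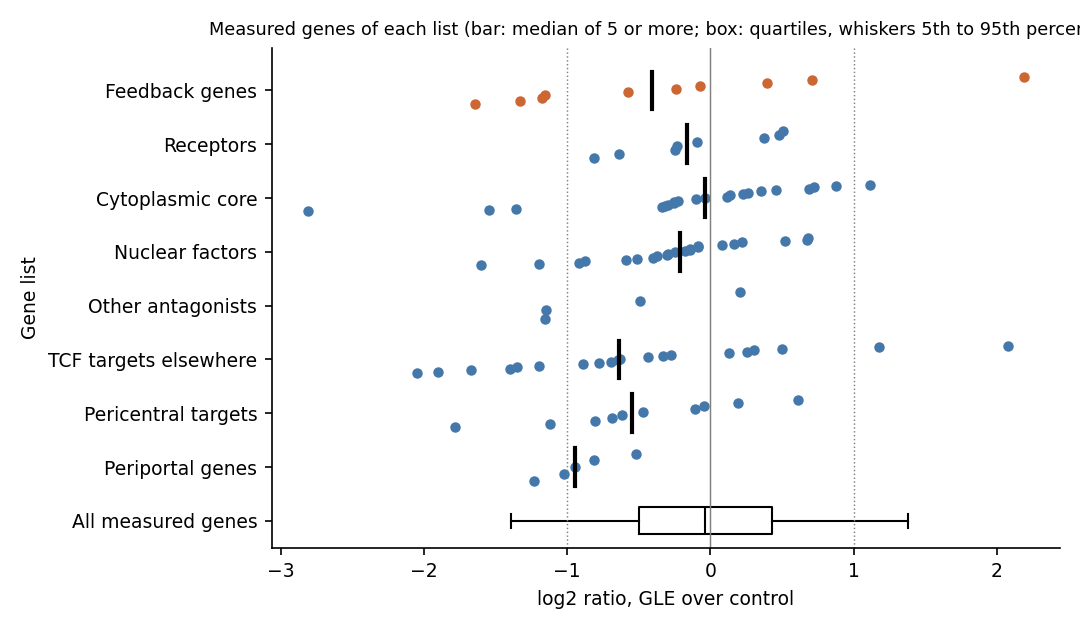
Log2 ratio of GLE over control for each measured gene of 8 lists, with a black bar at the median where a list has 5 or more, and for all measured genes a box of quartiles with whiskers from the 5th to the 95th percentile. The feedback genes span -1.64 to 2.19 around a median of -0.41, and the medians of the target lists (-0.64, -0.54) and of periportal genes (-0.95) lie below that of all measured genes (-0.04).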

How the data were processed

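Messenger RNA was measured in 1 DMSO control and 1 GLE library of Hep3B cells. The authors deposited raw read counts per gene symbol, 1 table per library, without normalization. The submitters' processing notes name fastp, STAR, HTSeq and GRCh38. Their versions, the annotation and the strand setting were not among the labels used. Symbols matched RefSeq (GRCh38.p14) for positions.

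Counts were scaled by TMM in edgeR 4.0.16 (R 4.3.3). Each ratio's 95% interval was converted from the exact Clopper-Pearson interval of the share of a gene's counts found with GLE. Before taking log2, 0.5 was added to counts. For a ratio with 0 counts in one library and more than 3 in the other, a floor of 3 counts stood in. With 1 to 3 in the other, no floor was used, and the gene passed 2-fold where no minimum was set. No test was possible without residual degrees of freedom. Genes were named as all 10 members, up to 4 measured genes per list whose interval lay farthest from 1, and CTNNB1, APC, TCF7L2, LGR4 and GLUL. Markers, overlapping genes and WNT3 were named beside these. OAT and SP5 were also named, after their values were seen. The members and lists were chosen with earlier results of these data known. The ratio computation was tested on simulated data. Python 3.11.15, SciPy 1.17.1, matplotlib 3.10.9 and, for size factors, DESeq2 1.42.0 were used.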

Additional observations from a re-analysis of the deposited data

How the results depend on the processing

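Scaling by total counts, DESeq2 size factors, upper quartiles, the median of genes of 100 or more counts, or library sizes without mitochondrial genes and the 20 genes with most counts left 4 members at least 2-fold lower and 1 higher. All 10 stayed on their side of 1 under these scalings, and their median log2 ratio ran from -0.49 to -0.38. With a count of 2 added it was -0.39. The interval of TCF7 came to hold 1 under total counts, and that of AXIN1 left it under median centring. Of 287 recomputed values of 41 single genes, 0 left their counting interval. Each of the 5 scalings multiplies all ratios by 1 common factor, which put DKK1 between 0.375 and 0.405, inside its interval of 0.330 to 0.475. Most of these values could therefore hardly have left their intervals. Thinning the control to the depth of the GLE library, in a single draw, put 2 members at least 2-fold higher, since TCF7 came to 2.20, moved AXIN2 across 1 to 1.17 (0.473 to 2.93), lowered NOTUM to 3.99 (1.69 to 10.9), and left 1 of the targets outside liver higher. The odds ratios of the 4 pairs were then 1.15, 1.81, 5.53 and 9.71, within their intervals. A 1.5-fold criterion gave 4 lower and 2 higher members, beside 21.9% and 19.3% of all measured genes, and a whole interval beyond 1 gave 5 and 2, beside 30.1% and 27.7%. The short motif core was in 5 member windows.

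The count minimum moved the lists most. At 100 counts, 3 of 6 members were lower and 0 higher, and the lower counts were 1 in the cytoplasmic core, 3 in targets outside liver (0 higher), 1 in pericentral and 0 in periportal genes. At 10 counts, 2 ligand genes, 1 receptor, 4 other antagonists and 4 periportal genes were lower, and 3 receptors and 1 periportal gene higher. With no minimum, the lower counts were 2 for ligand genes, 1 for receptors, 4 for nuclear factors, 4 for other antagonists, 5 for pericentral and 4 for periportal genes. The higher counts were then 1 ligand gene, 5 receptors, 3 core genes, 4 other antagonists, 5 targets outside liver, 2 pericentral and 2 periportal genes. All 4 of these other antagonists had 0 control counts and only 1 or 2 with GLE. Without a minimum, 1 count against 0 was enough for a call in either direction. Over all genes, 1840 were lower and 1655 higher at 10 counts, and 579 and 613 (6.91% and 7.31% of 8384 genes) at 100. With no minimum they were 3378 and 4224, over the 11068 measured genes and 7589 with 1 to 29 counts. Low counts pass 2-fold by counting error more often. How many genes of each list passed each minimum is not given here. The list counts thus show how calls moved, and not an excess over all genes. No paired analysis was possible because each condition has 1 library. Differences between cultures cannot be told apart from those between conditions.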

Other observations

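The pathway lists held 46 genes with 1 to 29 summed counts, under the minimum used above. Their counting interval lay wholly below 1 for 3 (6.02% of all genes with 1 to 29 counts) and wholly above 1 for 9 (12.1%). The 3 below were FZD9, KREMEN1 and PYGO1, and the 9 above were FZD1, FZD3, FZD7, TSPAN12, DACT3, FOSL1, CYP2E1, PCK1 and HSD17B13, named after their values were seen. KREMEN1, a receptor that binds DKK proteins and removes LRP co-receptors, had 17 counts without and 2 with GLE, a ratio of 0.192 (0.0215 to 0.810). PYGO1, a nuclear partner of BCL9, had 19 and 0 counts, and the upper end of its ratio interval was 0.350. TSPAN12, a partner of FZD4, had 2 and 12 counts, a ratio of 9.80 (2.18 to 90.2). PCK1, the gluconeogenic enzyme of periportal hepatocytes, had 0 and 14 counts with a lower interval end of 5.42, and lay opposite to the 5 measured periportal genes.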
